A study of Mus musculus with 12 samples.

Results

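Protein disulfide isomerases and ERO1 oxidases build disulfide bonds in proteins that fold in the endoplasmic reticulum (ER). Their transcripts were examined in the mouse heart through 10 genes, P4hb, Pdia3, Pdia4, Pdia5, Pdia6, Txndc5, Tmx1, Tmx3, Ero1a and Ero1b. Every probe set that the array's annotation assigns to 1 of these symbols was taken, which gave 22 of 45101 probe sets. For each gene the probe set with the highest mean stood for it in the tests, and all 10 genes were among the 11165 genes at or above the filter level, while 17 of their 22 probe sets reached it. Left ventricles came from 12 male C57BL/6 mice, each on its own Affymetrix mouse whole-genome array, with 3 arrays in each of 4 groups. Transgenic (TG) mice carry ATF6-MER, in which the ER stress transcription factor ATF6 is fused to a mutated estrogen receptor domain that tamoxifen switches on. Their non-transgenic (NTG) littermates lack it, and mice of each genotype received tamoxifen or vehicle, which makes the groups NTG vehicle, NTG tamoxifen, TG vehicle and TG tamoxifen. Age was about 30 weeks except for TG tamoxifen 1, given as 40 weeks. For the transgene's promoter and founder lines and for the dose and duration of tamoxifen, the sources used here give nothing.

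Proteins that enter the ER are folded in an oxidising lumen. Disulfide isomerases pass a disulfide from their active-site cysteines to a client and can also reshuffle wrong pairings, and ERO1 enzymes reoxidise them with oxygen, releasing hydrogen peroxide. Many of these genes belong to the unfolded protein response, in which ATF6 is cut free from its membrane and, with the factor NF-Y, binds the ER stress response element (ERSE) in promoters. In the heart this machinery serves secreted proteins, matrix proteins and the membrane proteins of cardiomyocytes.

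A few labels and arrays bear on every value below. TG vehicle 3 is a vehicle mouse by its title but a tamoxifen mouse by its treatment entry, and titles were followed. The array labelled NTG tamoxifen 1 read 17.72 on a log2 scale for Esr1, whose receptor domain is part of the fusion. That lay within the 16.66 to 18.25 of the TG arrays. For Esr1 NTG tamoxifen 2 and 3 read 10.88 and 9.89, above the 7.15 to 8.70 of NTG vehicle, and the reason was not tested. Hspa5, the main ER chaperone, read 18.05 on NTG tamoxifen 1, and 15.65 and 15.49 on NTG tamoxifen 2 and 3. The values of NTG tamoxifen 1 go against its NTG label, so each comparison is given with it and without it. On TG vehicle 3 Hspa5 read 15.94, against 16.39 and 15.76 on TG vehicle 1 and 2 and 18.37 to 18.47 in TG tamoxifen. Median intensity per array ran from 648 to 834. The beta-actin control's 3' to 5' signal ratio, a measure of RNA degradation, lay between 1.75 and 1.88 for TG tamoxifen and between 1.32 and 1.68 for TG vehicle. It was 1.78 to 1.97 in NTG tamoxifen and 2.12 to 2.43 in NTG vehicle. The same ratio of the Gapdh control was 0.75 to 0.78 in TG tamoxifen and 0.76 to 0.79 in TG vehicle, which overlap. In NTG tamoxifen it was 0.77 to 0.85 and in NTG vehicle 0.89 to 1.01, and it was not used as a covariate. Levels are log2(intensity + 16) after quantile normalization, and a change is a difference of group means with its standard error (SE) and n = 3 arrays a group. Changes were tested with limma in 1 fit over the 12 arrays, with Benjamini-Hochberg adjustment over all 11165 genes and a threshold of 0.05. Genes are not compared with each other in level, since probe sets differ in brightness.

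The promoters of the members were searched because the transgene encodes a factor with a known binding element, and the stretches that hold a match are shown first. RefSeq promoters (GRCm38.p6, 250 bases before to 50 after a start site) were searched for 9 of the 10 members. Tmx3 was left out of this search, so whether its promoter holds any element below was not tested. The full ERSE, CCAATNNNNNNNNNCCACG on either strand, was present in 2 members, Pdia6 and Ero1b, and in 39 of 32851 promoters overall (0.119%). When its last base was left free, a relaxation chosen after the strict matches had been seen, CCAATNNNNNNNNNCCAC matched 4 members, adding Pdia3 and Pdia4, and 120 promoters overall (0.365%). Each strict match is also a relaxed match. Bases of the element are in capitals, written 5′ to 3′ along the gene's strand. Ero1b and Pdia4 carry it on the opposite strand, so it appears there as its reverse complement. Pdia6 lies at chr12:17266461-17266539 (plus strand), Ero1b at chr13:12565652-12565730 (plus strand), Pdia4 at chr6:47813572-47813649 (minus strand) and Pdia3 at chr2:121413843-121413901 (plus strand).
Pdia6: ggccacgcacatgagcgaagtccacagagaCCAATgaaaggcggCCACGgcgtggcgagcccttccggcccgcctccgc
Ero1b: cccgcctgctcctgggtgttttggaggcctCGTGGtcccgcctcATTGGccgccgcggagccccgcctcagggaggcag
Pdia4: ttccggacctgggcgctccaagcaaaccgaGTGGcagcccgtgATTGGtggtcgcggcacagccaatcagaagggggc
Pdia3: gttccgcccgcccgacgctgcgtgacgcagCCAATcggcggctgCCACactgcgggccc
The element began 98 bases before the start site in Pdia6, 201 in Ero1b, 107 in Pdia4 and 29 in Pdia3. P4hb held CCAAT 14 bases before its start site and CCACG nearest to it with a gap of 6 bases, not the 9 of the searched letters. The related ERSE-II, ATTGGNCCACG, was in 0 of the 9 promoters and in 0.0365% of all. The core TGACGTG, which ATF6 and XBP1 can bind, was in Txndc5 among the members and in 2.01% of all promoters. These matches describe letters in this window only.

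TG tamoxifen against TG vehicle asked how the members respond when the fusion is switched on. Of the 10 members 6 rose and 0 fell: P4hb, Pdia3, Pdia4, Pdia6, Tmx3 and Ero1b. Among all genes tested 10.4% rose and 14.4% fell (1166 and 1608 genes, or 1542 and 1166 with each array centred on its median). The median change of the members was 0.74 log2 units, against -0.07 over all genes. On 7 members every TG tamoxifen array lay above every TG vehicle array, which held for 19.8% of all genes. The beta-actin ratios of the groups did not overlap here, while the Gapdh ratios did. With the beta-actin ratio as a covariate limma called 0 members, with 5 at an unadjusted p under 0.05, and 5 of all genes. In that fit the changes of P4hb, Pdia3, Pdia4 and Pdia6 were 3.33, 2.23, 3.61 and 1.39. Grouping TG vehicle 3 by its treatment field also left 0 members called, with 6 at an unadjusted p under 0.05, as did leaving out TG vehicle 3 together with TG tamoxifen 1, the array of the older mouse, with 7. The array labelled NTG tamoxifen 1 stayed in that fit, and without it alone 7 members rose, against 12.8% of all genes higher and 16.4% lower.

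**Figure D1:**
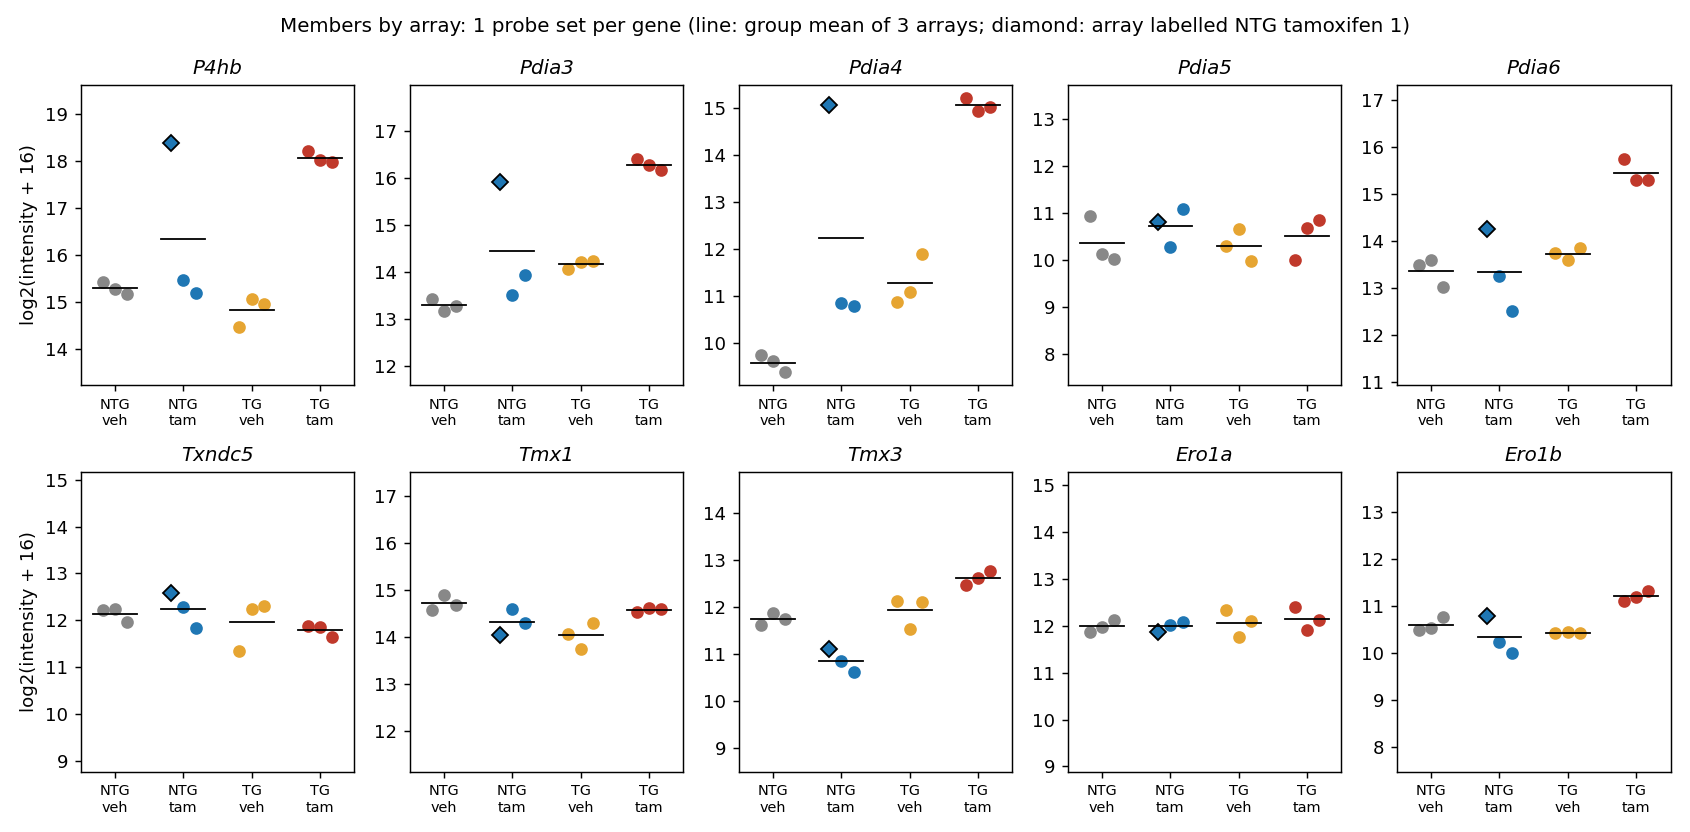
Log2(intensity + 16) after quantile normalization on each of the 12 arrays, by group (NTG vehicle, NTG tamoxifen, TG vehicle, TG tamoxifen), for the probe set that stands for each member; points are arrays, lines are means of 3 arrays, and each panel spans the same log2 range. The 3 TG tamoxifen arrays stand above the TG vehicle arrays for P4hb, Pdia3, Pdia4, Pdia6, Tmx1, Tmx3 and Ero1b, and the array labelled NTG tamoxifen 1 (diamond) stands with them for P4hb and Pdia4.

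The largest changes among the 10 members were in soluble isomerases of the ER lumen. P4hb encodes the founding protein disulfide isomerase, which also serves as the beta subunit of collagen prolyl 4-hydroxylase. It read 18.22, 18.03 and 17.98 on the TG tamoxifen arrays, 14.48, 15.06 and 14.96 on TG vehicle, 15.42, 15.28 and 15.16 on NTG vehicle, and 18.38, 15.47 and 15.18 on NTG tamoxifen. The lowest TG tamoxifen array lay 2.51 log2 units above the highest of the 8 arrays that are neither TG tamoxifen nor NTG tamoxifen 1. P4hb rose by 3.25 ± 0.63 log2 units (SE), a 9.49-fold difference (95% interval 1.87 to 4.62 in log2, adjusted p = 0.00526). With the beta-actin covariate its change was 3.33 (adjusted p = 0.0965), and with TG vehicle 3 grouped as TG tamoxifen 2.53 (0.192). Over all 25 alternatives its adjusted p ran from 5.12e-06 to 0.192.

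Pdia4, an isomerase with several thioredoxin-like domains that joins Hspa5 complexes, showed the largest difference of the 10. It read 15.22, 14.95 and 15.04 in TG tamoxifen and 10.87, 11.08 and 11.88 in TG vehicle, with no overlap. Levels in NTG vehicle were 9.74, 9.61 and 9.38, below all other arrays, and in NTG tamoxifen 15.07, 10.86 and 10.80. Pdia4 rose in TG by 3.79 ± 0.87 log2 units, or 13.8-fold (adjusted p = 0.0106). A dimmer probe set lay below the filter level and read 9.41, 9.64 and 9.82 against 7.51, 6.22 and 8.88, a difference of 2.09 ± 0.75 that missed the threshold over all probe sets (adjusted p = 0.160). Among the alternatives the call on Pdia4 was lost in the same 3 fits as that on P4hb, with adjusted p from 0.0629 to 0.178, and its change ran from 2.94 to 4.08 over all 25.

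Pdia3, which works with calnexin and calreticulin on glycoproteins, read 16.41, 16.27 and 16.17 in TG tamoxifen and 14.06, 14.22 and 14.23 in TG vehicle. NTG vehicle arrays read 13.43, 13.16 and 13.28, and NTG tamoxifen 15.91, 13.51 and 13.93. It rose by 2.12 ± 0.46 log2 units (4.34-fold, adjusted p = 0.00853). A second, dimmer probe set read 11.14, 11.10 and 10.93 against 9.09, 10.18 and 10.18, with a difference of 1.24 ± 0.47 (adjusted p = 0.186 over all probe sets). Both probe sets of Pdia3 separated these groups without overlap.

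Pdia6, an isomerase that also binds the stress sensor IRE1, rose in TG by 1.72 ± 0.36 log2 units, or 3.30-fold (adjusted p = 0.00719). The arrays read 15.76, 15.30 and 15.31 in TG tamoxifen, 13.74, 13.60 and 13.86 in TG vehicle, 13.49, 13.60 and 13.01 in NTG vehicle, and 14.25, 13.26 and 12.50 in NTG tamoxifen. The other probe set of Pdia6 was below the filter level and overlapped between the groups, at 8.93 to 10.08 and 6.80 to 9.02. Pdia3 and Pdia6 lost the call in the same 3 fits, with adjusted p of 0.114 and 0.164 under the beta-actin covariate. Over the 25 alternatives the change of Pdia3 ran from 1.63 to 2.23 and that of Pdia6 from 1.39 to 1.96.

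For Pdia5 and Txndc5, lumenal relatives with thioredoxin-like domains, the groups overlapped. Pdia5 read 9.996, 10.69 and 10.84 in TG tamoxifen and 10.29, 10.65 and 9.97 in TG vehicle, a difference of 0.20 ± 0.32 (95% interval -0.50 to 0.90, adjusted p = 0.678). Txndc5 read 11.87, 11.86 and 11.65 against 11.35, 12.24 and 12.31, a difference of -0.17 ± 0.27 (95% interval -0.75 to 0.41, adjusted p = 0.675). The second Txndc5 probe set gave 0.12 ± 0.27. Within each of these genes the arrays of one group spread as widely as the groups differed, and neither interval reaches the changes of P4hb, Pdia3, Pdia4 or Pdia6.

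Tmx1 and Tmx3 are membrane-anchored isomerases, Tmx1 with a preference for membrane-bound clients. For Tmx3 the TG tamoxifen arrays read 12.48, 12.63 and 12.77 and TG vehicle 12.13, 11.54 and 12.12. Tmx3 rose by 0.69 ± 0.20 log2 units (1.62-fold, adjusted p = 0.0290). The platform marks this probe set as possibly matching several transcripts, and over all probe sets it missed the threshold (adjusted p = 0.141). The other probe sets of Tmx3 read 0.59 ± 0.34 without overlap, and 0.16 ± 0.51 and 0.27 ± 0.64 with overlap, and none passed. The call was lost without TG tamoxifen 1 (adjusted p = 0.0550), TG tamoxifen 2 (0.0736), TG tamoxifen 3 (0.0917) or TG vehicle 2 (change 0.50, 0.0986), and under the beta-actin covariate the change was 0.22 (0.613). Tmx1 read 14.53, 14.62 and 14.59 against 14.07, 13.75 and 14.29, without overlap. Its difference of 0.55 ± 0.19 missed the threshold (adjusted p = 0.0591) and passed it without NTG tamoxifen 1 (0.0389), NTG tamoxifen 2 (0.0481) or TG vehicle 3 (0.66, 0.0482), and with each array centred on its median (0.75, 0.0295). Its other probe set gave 0.41 ± 0.22, again without overlap.

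Of the oxidases Ero1b passed the test and Ero1a did not, and the difference between them was not tested. Ero1b, the paralogue known from secretory cells such as pancreatic beta cells, read 11.12, 11.19 and 11.33 in TG tamoxifen and 10.42, 10.44 and 10.42 in TG vehicle. It rose by 0.79 ± 0.20 log2 units (1.73-fold, adjusted p = 0.0153), a call lost without TG tamoxifen 3 (0.73, 0.0522). The 2 other Ero1b probe sets were below the filter level, scattered from 6.79 to 10.41 over these 6 arrays and overlapped. Ero1a, the widely expressed paralogue that is also induced by hypoxia, read 12.41, 11.91 and 12.12 against 12.34, 11.77 and 12.10 on its brightest probe set, a difference of 0.08 ± 0.19 (95% interval -0.34 to 0.49, adjusted p = 0.802).

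The other probe sets of Ero1a gave other values. On a dimmer one the TG tamoxifen arrays read 12.36, 12.63 and 12.53 and TG vehicle 11.05, 11.42 and 11.55, a difference of 1.17 ± 0.40 with no overlap. NTG vehicle read 10.87, 10.66 and 10.54 there, and NTG tamoxifen 12.27, 10.60 and 10.69, so the array labelled NTG tamoxifen 1 again read close to TG tamoxifen. That difference missed the threshold over all 45037 probe sets (adjusted p = 0.140) and passed it without NTG tamoxifen 1 (1.17 ± 0.21, adjusted p = 0.0147), where 5.72% of all probe sets passed. The remaining Ero1a probe set read 0.17 ± 0.23 and overlapped. Without NTG tamoxifen 1 it and the brightest one still missed the threshold (adjusted p = 0.743 and 0.896). Whether these probe sets report different ends or forms of the transcript was not tested. Over all probe sets the threshold was passed by the P4hb probe set (adjusted p = 0.0362) and by the brighter one of Pdia6 (0.0463), against 1.41% of all probe sets higher and 1.70% lower, and Pdia3 missed it at 0.0512.

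**Figure D2:**
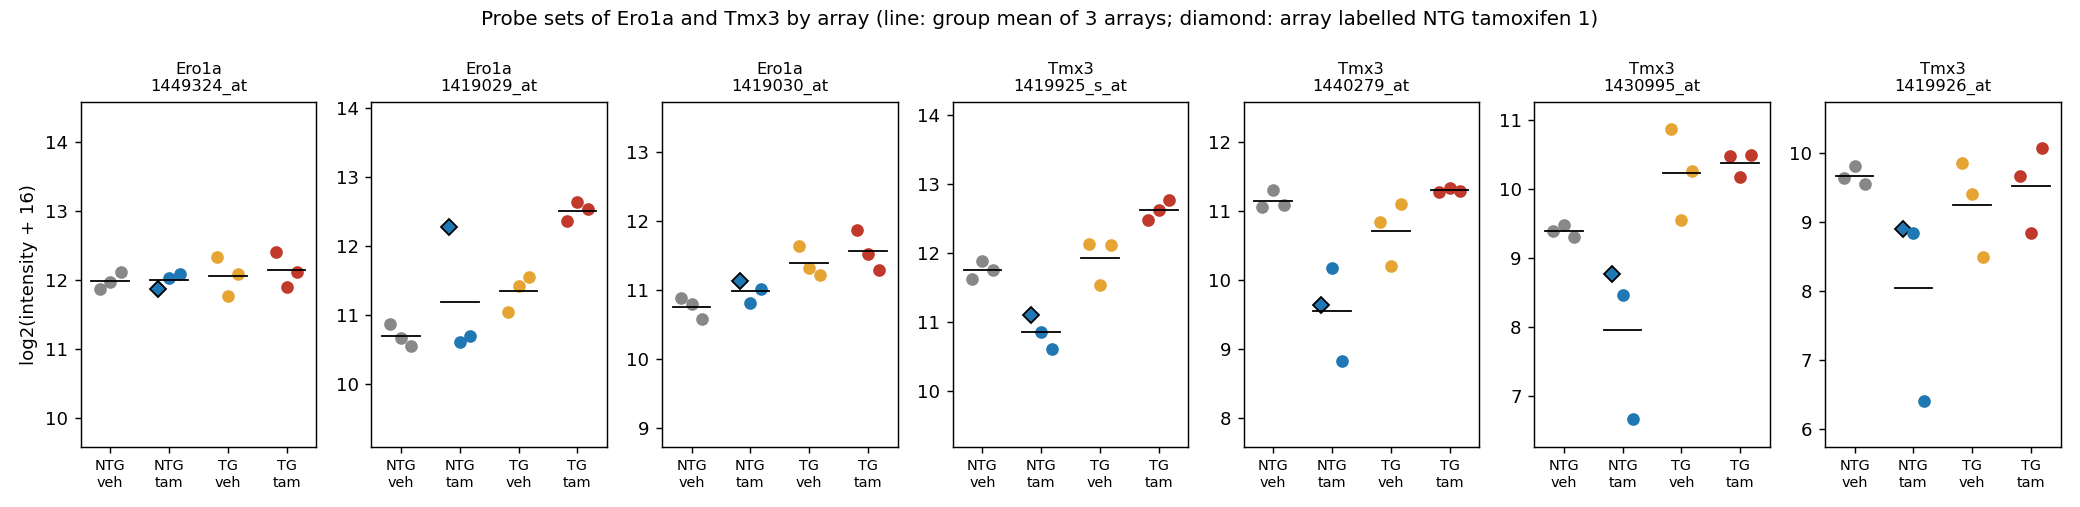
Log2(intensity + 16) on each array for the 3 probe sets of Ero1a and the 4 of Tmx3, by group, with group means of 3 arrays as lines and equal log2 spans. In the second panel the TG tamoxifen arrays (12.36 to 12.63) and the diamond for NTG tamoxifen 1 (12.27) stand above all others, while the first panel, the probe set that stands for Ero1a, has overlapping groups; the Tmx3 probe sets are lowest in NTG tamoxifen.

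Across the 22 probe sets, the plot of all of them in TG shows the changes of the 4 soluble isomerases P4hb, Pdia3, Pdia4 and Pdia6 on the right, also on the probe sets that are dim. With 3 arrays a group, the number of arrays limits precision.

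**Figure D3:**
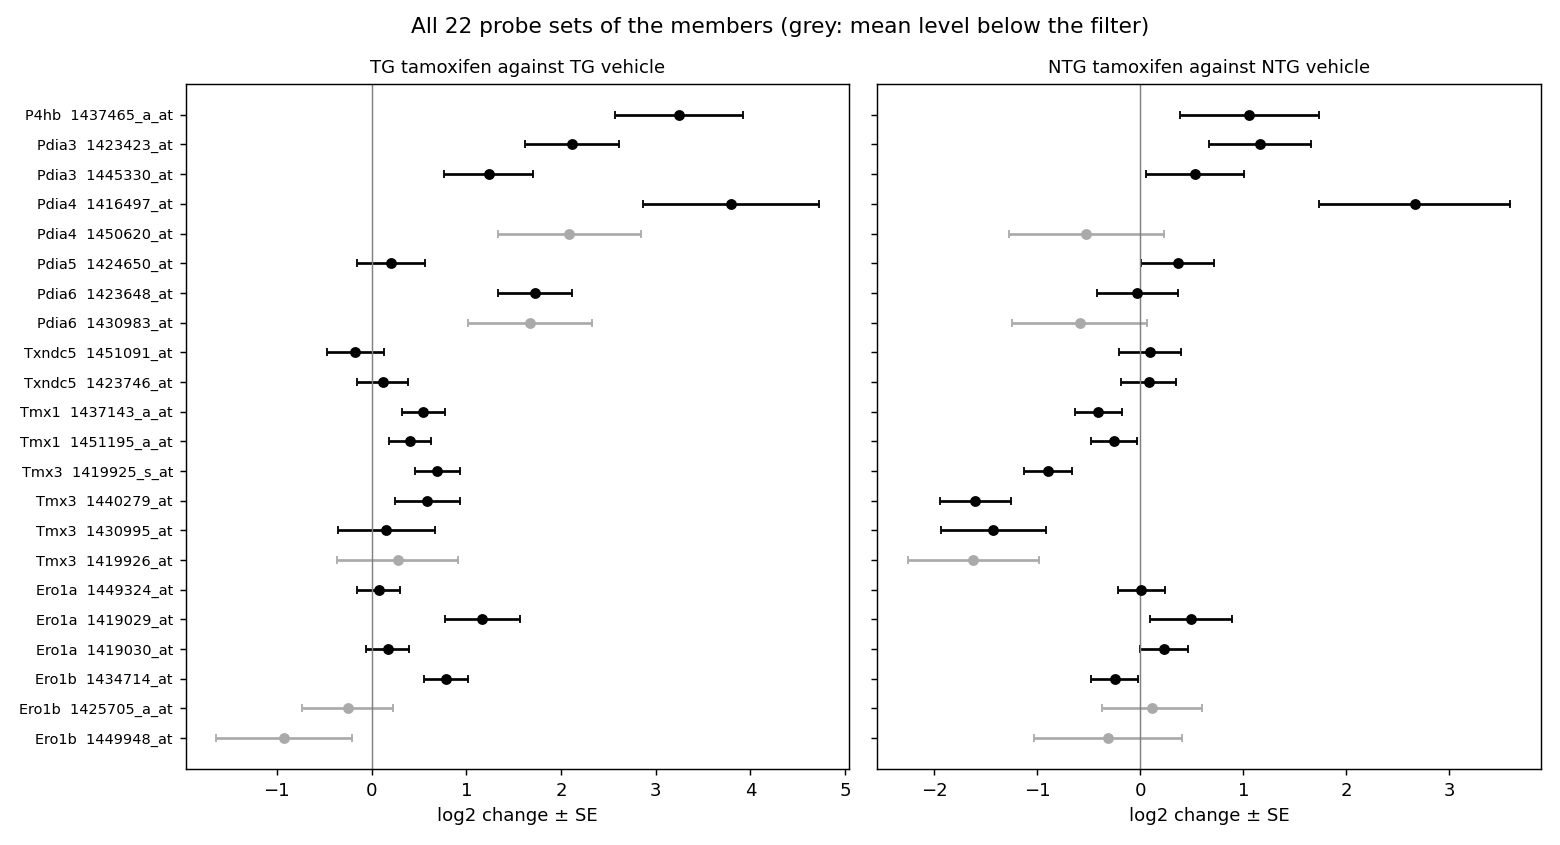
Log2 change ± SE of each of the 22 probe sets in TG tamoxifen against TG vehicle (left) and NTG tamoxifen against NTG vehicle (right), from the fit over all probe sets; grey marks a mean level below the filter. All probe sets of P4hb, Pdia3, Pdia4 and Pdia6 lie to the right of 0 in TG, from 1.24 to 3.79, and all 4 of Tmx3 lie to the left of 0 in NTG, from -1.62 to -0.90.

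NTG tamoxifen against NTG vehicle measured the drug without the fusion, in a group that holds the array labelled NTG tamoxifen 1. Of the 10 members 0 rose and 1, Tmx3, fell, where 0.681% of all genes rose and 3.69% fell (76 and 412 genes, or 47 and 925 with median centring). On 2 members every NTG tamoxifen array was higher and on 1 every array was lower, against 13.2% and 17% of all genes. Tmx3 read 11.10, 10.85 and 10.61 in NTG tamoxifen and 11.62, 11.88 and 11.75 in NTG vehicle. It fell by 0.90 ± 0.20 log2 units (adjusted p = 0.0329), and by 1.02 ± 0.21 without NTG tamoxifen 1 (0.0373). Its other 3 probe sets read -1.60 ± 0.34, -1.43 ± 0.51 and -1.62 ± 0.64, of which none passed over all probe sets (adjusted p from 0.121 to 0.308), where 0.0266% of all were higher and 0.04% lower. In that fit the probe set that stands for Tmx3 missed the threshold too (0.159). The fall lost its call in 13 of 25 alternatives. These included leaving out NTG tamoxifen 3 (adjusted p = 0.108), any of NTG vehicle 1, 2 and 3 (0.0849, 0.133 and 0.0972), or TG tamoxifen 1 or 2 (0.0503 and 0.0565). Under the beta-actin covariate limma called 0 members and 0 genes here, with 0 and 990 at an unadjusted p under 0.05, and Tmx3 read -0.43 (adjusted p = 0.605). The beta-actin ratio did not overlap between these groups.

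Pdia4 differed between these groups on every array. With all arrays its difference was 2.67 ± 0.87 (adjusted p = 0.0986), with NTG tamoxifen 1 at 15.07. Without that array it rose by 1.26 ± 0.27 log2 units (adjusted p = 0.0401), since NTG tamoxifen 2 and 3 (10.86 and 10.80) lay above the 9.38 to 9.74 of NTG vehicle. NTG tamoxifen 2 and 3 also lay above NTG vehicle on Esr1. The dim second probe set of Pdia4 read in the opposite direction, at -0.52 ± 0.75 with all arrays and -0.86 ± 0.85 without NTG tamoxifen 1, and passed in neither fit over all probe sets. The first probe set of Pdia4 did not pass over all probe sets either (adjusted p = 0.256 with all arrays, 0.182 without NTG tamoxifen 1). P4hb read 1.06 ± 0.63 with all arrays (adjusted p = 0.333) and 0.04 ± 0.20 without NTG tamoxifen 1 (0.935). Pdia3 read 1.16 ± 0.46 (0.158) and 0.43 ± 0.18 without it (0.191), and it passed the threshold without NTG tamoxifen 2 (1.63, 0.0456). The other members gave differences from -0.41 for Tmx1 to 0.36 for Pdia5, and none passed.

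The array labelled NTG tamoxifen 1 did not read like TG tamoxifen on every member. It stood 3.05 log2 units above the mean of the other NTG tamoxifen arrays for P4hb, 4.25 for Pdia4 and 2.19 for Pdia3. For P4hb it lay 0.30 above the TG tamoxifen mean, for Pdia4 0.01 above and for Pdia3 0.38 below. For Pdia6, at 14.25, it was 1.37 above the others of its labelled group and below the lowest TG tamoxifen array at 15.30. For Ero1b it was 0.66 above them and 0.44 below the TG tamoxifen mean. For Tmx3 it read 11.10, close to the other NTG tamoxifen arrays (10.85 and 10.61) and 1.52 below the TG tamoxifen mean. Thus on Pdia3, Pdia6, Tmx3 and Ero1b it fell between the groups, and its identity was not tested beyond these values.

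**Figure D4:**
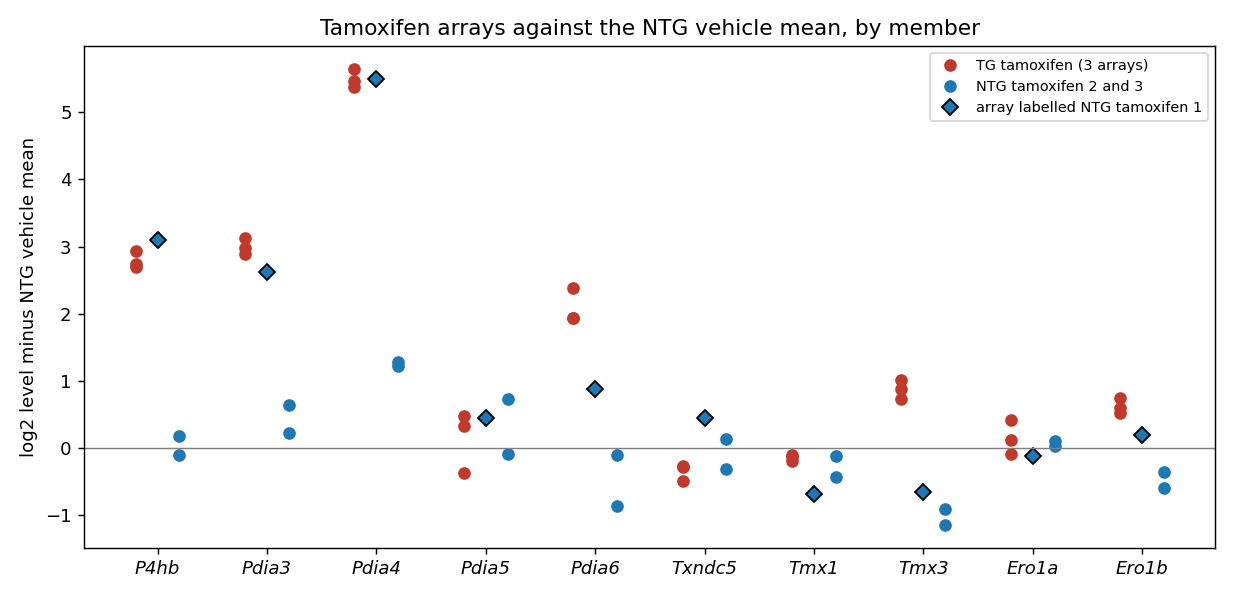
Log2 level minus the NTG vehicle mean for each member on the 3 TG tamoxifen arrays, the array labelled NTG tamoxifen 1 (diamond) and NTG tamoxifen 2 and 3. The diamond stands with TG tamoxifen for P4hb and Pdia4 and 0.38 below its mean for Pdia3, between the groups for Pdia6 and Ero1b, and nearer NTG tamoxifen 2 and 3 for Tmx3.

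TG vehicle against NTG vehicle measured the fusion without the drug. With all arrays limma called 0 members, with 1 (Tmx1) at an unadjusted p under 0.05, where 1.39% of all genes were higher and 2.24% lower (155 and 250 genes, or 76 and 477 with median centring). For 6 members all TG vehicle arrays lay on one side of all NTG vehicle arrays: Pdia3, Pdia4 and Pdia6 were higher on every TG array, and P4hb, Tmx1 and Ero1b lower, against 15.4% of all genes in each direction. Pdia4 read 1.70 ± 0.87 (adjusted p = 0.265), Pdia3 0.88 ± 0.46 (0.274), Tmx1 -0.68 ± 0.19 (0.0728) and P4hb -0.46 ± 0.63 (0.704). The array labelled NTG tamoxifen 1 enters this comparison only through the shared estimate of the spread. Without it the same differences had smaller errors: Pdia4 rose by 1.71 ± 0.24 (adjusted p = 0.0102), Pdia3 rose by 0.88 ± 0.16 (0.0182) and Tmx1 fell by 0.68 ± 0.17 (0.0450), so 3 members were called, against 3.02% of all genes higher and 4.09% lower in that fit. P4hb read -0.46 ± 0.18 (adjusted p = 0.145) there. The beta-actin ratio differed without overlap between these groups too, and with it as a covariate 0 members were called, with 1 at an unadjusted p under 0.05. In that fit, over all 12 arrays, Tmx1 read -0.03 (adjusted p = 0.988), Pdia4 2.09 (0.752) and Pdia3 0.62 (0.877). The dim second probe set of Pdia4 read -0.56 ± 0.75 between the vehicle groups, opposite to the first. The second probe set of Pdia3 read 0.03 ± 0.47 and that of Tmx1 -0.29 ± 0.22, both with overlap. Over all probe sets without NTG tamoxifen 1, the first probe sets of Pdia4, Pdia3 and Tmx1 missed the threshold. Their adjusted p in limma was 0.0511, 0.0903 and 0.169, where 0.298% of all probe sets passed.

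TG tamoxifen against NTG tamoxifen compared the genotypes under the drug, and here the beta-actin ratios overlapped (1.75 to 1.88 and 1.78 to 1.97). The same 6 members passed, all higher in TG, where 19% of all genes were higher and 20.6% lower (2116 and 2295 genes, or 2553 and 1707 with median centring), and on 4 members the arrays did not overlap, against 24% of all genes higher and 27% lower on every array. Tmx3 was higher by 1.77 ± 0.20 log2 units (adjusted p = 2.75e-04), Pdia6 by 2.12 ± 0.36 (0.00106), Ero1b by 0.88 ± 0.20 (0.00487) and Pdia3 by 1.84 ± 0.46 (0.00842). Pdia4 was higher by 2.83 ± 0.87 (0.0225) and P4hb by 1.73 ± 0.63 (0.0460), and both overlapped through NTG tamoxifen 1. Without that array they were higher by 4.25 ± 0.27 (8.77e-06) and 2.76 ± 0.20 (1.41e-05), and Pdia3 and Pdia6 by 2.57 each. P4hb lost its call in 17 of 25 alternatives and Pdia4 in 8, each among them without NTG tamoxifen 2 (1.29, adjusted p = 0.160, and 2.14, 0.0891) or NTG tamoxifen 3 (1.14, 0.183, and 2.11, 0.0961). The P4hb call was also lost without any single TG array or NTG vehicle array (adjusted p from 0.0535 to 0.109), and that of Pdia4 without TG tamoxifen 1 (0.0611) or TG tamoxifen 3 (0.0533). With the beta-actin covariate 5 members were called, beside 2176 genes higher and 2453 lower of all 11165, with Tmx3 at 1.88 (1.24e-04), Pdia6 at 2.19 (0.00127), Pdia3 at 1.81 (0.0144), Pdia4 at 2.87 (0.0322) and Ero1b at 0.90 (0.00557), and P4hb at 1.71 missed the threshold (0.0663). This comparison shares its TG tamoxifen arrays with the one within TG, so the calls are not independent. Among the probe sets of Tmx3, 3 of 4 passed over all probe sets, at 1.77 ± 0.24, 1.76 ± 0.34 and 2.42 ± 0.51 (adjusted p = 0.00374, 0.0103 and 0.0134), where 7.17% of all were higher and 6.51% lower. The Ero1a probe set that had separated the TG groups read 1.32 ± 0.40 (0.0535). Without NTG tamoxifen 1 it read 1.87 ± 0.23 (0.00180), where 15.3% of all probe sets passed. Of the other Ero1a probe sets the dimmer read 0.58 ± 0.23 (0.131), also without overlap, and the brightest 0.15 ± 0.23 with overlap.

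The tamoxifen effect in TG minus that in NTG was positive and past the threshold for 4 of 10 members and negative for 0, where 7.51% of all genes were higher and 6.76% lower (838 and 755, or 1518 and 335 with median centring). It was 1.59 ± 0.29 for Tmx3 (adjusted p = 0.0110), 1.75 ± 0.50 for Pdia6 (0.0402), 0.95 ± 0.27 for Tmx1 (0.0402) and 1.04 ± 0.28 for Ero1b (0.0318). For Tmx3 it joined a rise of 0.69 in TG to a fall of 0.90 in NTG, and for Tmx1 differences of 0.55 and -0.41 of which neither passed alone. P4hb read 2.19 ± 0.89 (0.112), Pdia3 0.96 ± 0.65 (0.330) and Pdia4 1.12 ± 1.22 (0.556). Without NTG tamoxifen 1 these became 3.21 ± 0.27 (1.70e-04), 1.69 ± 0.24 (0.00169) and 2.54 ± 0.36 (0.00184), and 7 of 10 members passed, against 11.9% of all genes higher and 11% lower in that fit. Tmx3 kept its call whichever single array was left out (adjusted p up to 0.0338). Pdia6 and Ero1b kept theirs without TG vehicle 1 or NTG tamoxifen 1 and lost it without each of the other 10 arrays, with adjusted p from 0.0525 to 0.0930 and from 0.0549 to 0.0747. Tmx1 kept its call without TG vehicle 1, TG vehicle 3, NTG tamoxifen 1 or NTG tamoxifen 2, and lost it without each of the other 8 arrays (adjusted p from 0.0584 to 0.0980). With the beta-actin covariate 0 members and 0 genes were called, with 0 and 812 at an unadjusted p under 0.05. Over all probe sets none of the members' probe sets passed (adjusted p = 0.0745 for Tmx3, 0.153 for Ero1b, 0.154 for Pdia6 and 0.178 for Tmx1). Without NTG tamoxifen 1 these became 0.0367, 0.0470, 0.0312 and 0.202, where 2.83% of all passed. With all arrays the other probe sets read 1.59 to 2.19 for Tmx3, 2.27 for Pdia6 and 0.66 for Tmx1. The dim other ones of Ero1b read -0.36 and -0.62.

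**Figure D5:**
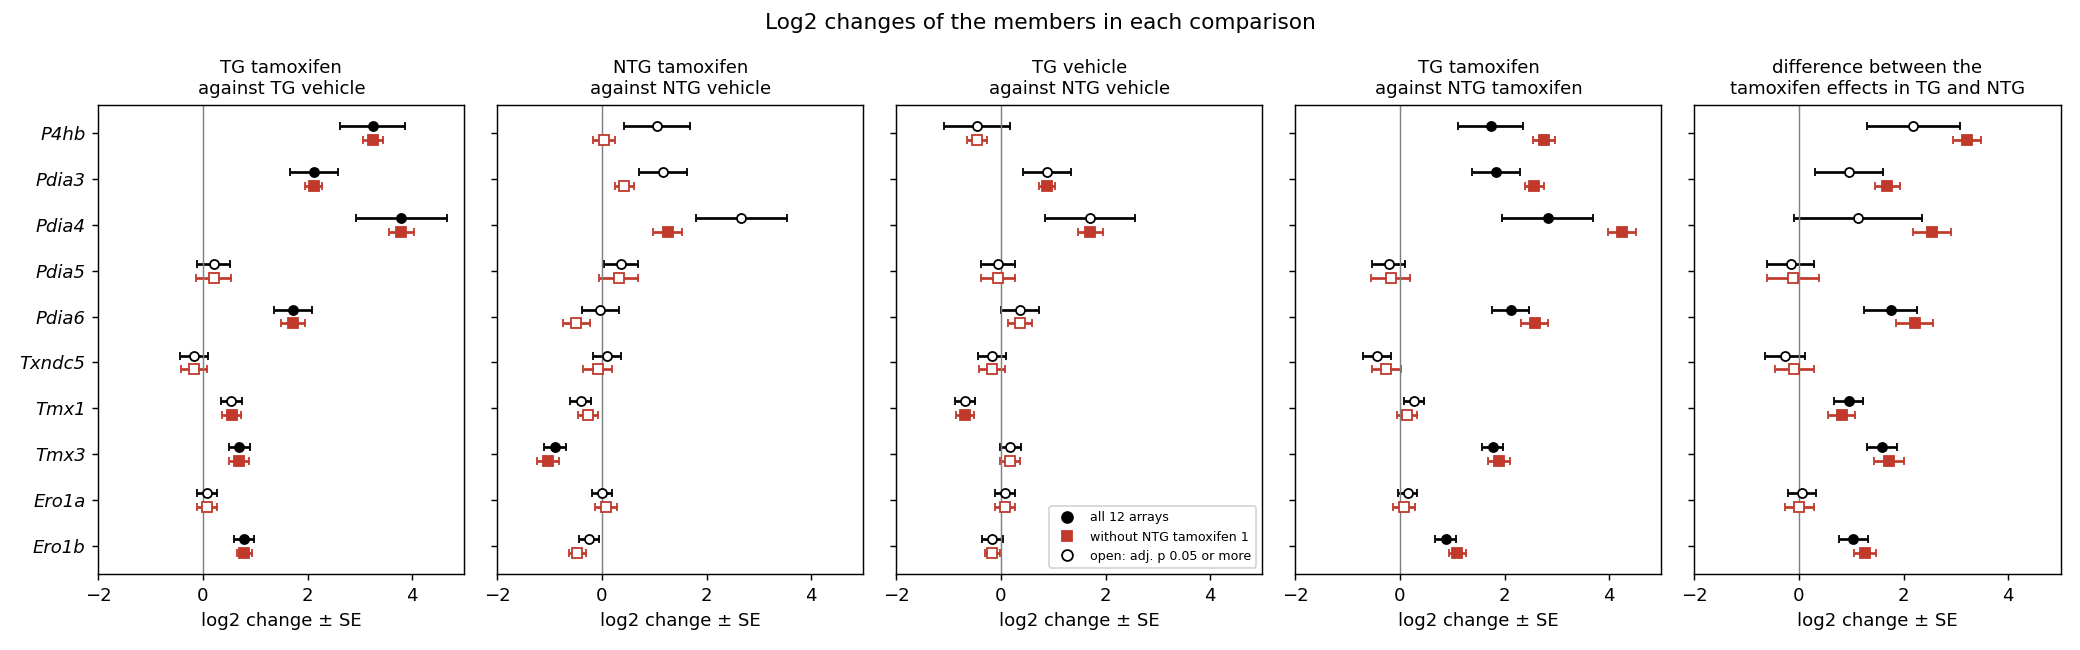
Log2 change ± SE of each member in the 5 comparisons, with all 12 arrays (circles) and without the array labelled NTG tamoxifen 1 (squares); filled symbols passed an adjusted p of 0.05. P4hb, Pdia3 and Pdia4 in the comparisons that use NTG tamoxifen move most between the symbols, and the symbols of Pdia5, Txndc5 and Ero1a are unfilled in all 5 comparisons.

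Other genes of disulfide formation were counted in TG tamoxifen against TG vehicle, from lists chosen with earlier results of these data known. For every list below, the shares over all genes were 10.4% higher and 14.4% lower, or 12.8% and 16.4% without NTG tamoxifen 1. Of 9 tested further isomerase relatives (14 listed) 0 rose and 2 fell, Txndc15 by 0.72 ± 0.20 log2 units (adjusted p = 0.0246) and Txndc16 by 0.62 ± 0.20 (0.0431), with a median of -0.14; 6 had an unadjusted p under 0.05 in limma. Without NTG tamoxifen 1, 1 rose and 3 fell. Erp29, a chaperone relative without the active cysteines, read 0.76 ± 0.30 (adjusted p = 0.0888), Dnajc10, a reductase that opens disulfides before degradation, 0.05 ± 0.19 (0.876), and Erp44, which holds back ERO1 and immature clients, 0.23 ± 0.20 (0.440). Of 9 tested enzymes of other oxidation routes 2 rose and 1 fell, with a median of -0.11. The peroxidase Gpx8 rose by 0.83 ± 0.19 (0.00989) and Vkorc1l1, a quinone reductase that can supply disulfides, by 0.84 ± 0.20 (0.0136). Selenom, a selenoprotein with a thioredoxin-like fold, fell by 0.76 ± 0.18 (0.0124), and Prdx4, the ER peroxiredoxin, read -0.50 ± 0.23 (0.134). Without NTG tamoxifen 1, 3 rose and 1 fell.

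Of the listed partners of the isomerases, 12 in all, 9 were tested. Of these 6 rose and 1 fell, with a median of 1.35 log2 units against -0.07 over all genes, and the counts were the same without NTG tamoxifen 1 over 10 tested. Creld2, an ER protein with isomerase activity, rose by 3.79 ± 0.71 (adjusted p = 0.00449), calreticulin (Calr) by 2.24 ± 0.38 (0.00327), the ER cyclophilin Ppib by 1.52 ± 0.34 (0.00945) and the chaperone Hyou1 by 1.35 ± 0.39 (0.0271). Calnexin (Canx), the membrane-bound lectin that pairs with Pdia3, rose by 0.81 ± 0.24 (0.0315), and Uggt1, the sensor of glycoprotein folding, by 1.69 ± 0.53 (0.0385). Of the alpha subunits that pair with P4hb in collagen prolyl hydroxylase, P4ha2 fell by 0.76 ± 0.17 (0.00979) and P4ha1 read -0.36 ± 0.21 (0.220). Mttp, which also pairs with P4hb, read -0.63 ± 0.25 (0.0801).

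Over the 12 arrays the genes outside the members with the profile most like P4hb were Tspyl2 and Pgrmc2 (Pearson's r = 0.990 each), Stbd1 (0.986), Sel1l (0.984) and Tbcb (0.978). These values describe 12 arrays that fall into 4 high ones, TG tamoxifen and NTG tamoxifen 1, and 8 others, so many genes that differ between those sets correlate. Among the members r with P4hb was 0.921 for Pdia4, 0.913 for Pdia3, 0.825 for Pdia6 and 0.809 for Ero1b, and 0.0262 to 0.385 for the others. The full ERSE was in 10 of 948 genes that rose in TG tamoxifen and had a promoter entry (1.05%), in 2 of 1312 that fell (0.152%) and in 15 of 9025 tested (0.166%).

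The tissue is a whole ventricle, so fewer cells of a type and less RNA per cell cannot be told apart. All 10 cardiomyocyte markers were above the filter level, and 2 of them fell in TG tamoxifen against TG vehicle, Ryr2 and Tnnc1. Their summed intensity was 2654640 to 2750090 there, 2986320 to 3037740 in TG vehicle, 2906430 to 3102480 in NTG tamoxifen and 3074690 to 3092410 in NTG vehicle. All sums in this paragraph use intensities after quantile normalization, which gives every array the same set of values. A sum of the brightest genes therefore follows their ranks on an array and is not a free measure of their RNA. Of 8 macrophage and leukocyte markers 2 rose and 0 fell, Ptprc by 1.40 ± 0.25 and Aif1 by 1.34 ± 0.30. On C1qa, Csf1r and Adgre1, TG vehicle 2 and 3 read above every TG tamoxifen array. The sums of the 8 ran from 99584 to 148554 in TG tamoxifen and from 58922 to 119215 in TG vehicle, which overlap. They were 56420 to 58028 in NTG tamoxifen and 63033 to 69815 in NTG vehicle. These sums weigh most the brightest markers, Csf1r and Lyz2 (mean levels 14.67 and 14.59). Of 8 endothelial markers 4 fell, with a summed intensity from 38850 to 41913 in TG tamoxifen and from 51755 to 58740 in TG vehicle, and of 45623 to 57152 in NTG tamoxifen and 59959 to 64692 in NTG vehicle. Fibroblast markers, of which 1 rose and 2 fell of 8, had sums from 204699 to 234222 in TG tamoxifen and from 235722 to 272118 in TG vehicle. Their sums were 150241 to 194880 in NTG tamoxifen, below TG tamoxifen, and 191205 to 221506 in NTG vehicle. Of 4 tested smooth muscle markers 1 fell. Of 7 listed B and plasma cell markers, cells rich in disulfide isomerases, 2 were tested and 0 passed in limma, with 0 at an unadjusted p under 0.05; Cd79a, Cd79b, Ms4a1 and Jchain were below the filter level. The part of the other cell types in the changes of the members was not tested.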

How the data were processed

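Each of 12 left ventricles was hybridised to its own array. The authors deposited linear intensities for each probe set, from 1.02 to 537040. With 2% trimmed from both ends their mean was 2500.02 throughout, so they had been scaled to a common target; the summarisation software is not given in the sources used here. From these, log2(intensity + 16) was taken and quantile normalized, because array medians spanned 0.35 log2 units. After 64 control probe sets were set aside, 34945 probe sets had 1 symbol. The probe set with the highest mean stood for each gene, and genes at or above the 50th percentile of all probe sets (log2 9.42) were tested. limma 3.58.1 in R 4.3.3 fitted 4 group means over 12 arrays (8 residual and 3.55 prior degrees of freedom), two-sided, in 5 comparisons; a second fit covered all 45037 non-control probe sets. The script was tested on simulated data. Groups follow the titles. Beside the members, the text names Esr1 and Hspa5 as label checks, up to 4 called genes a direction from each list, and the 5 profiles most like P4hb; Canx, Uggt1 and list genes that did not pass were named after their values were seen. The members and lists were chosen with earlier results of these data known.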

Additional observations from a re-analysis of the deposited data

Results flagged for a closer look

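The change with tamoxifen in TG hearts exceeded that in NTG hearts, by a test of the difference itself in limma with Benjamini-Hochberg adjustment, for 4 members. Of all genes tested 7.51% were higher and 6.76% lower by the same test. The difference of effects was 1.59 log2 units for Tmx3 (adjusted p = 0.0110), 1.75 for Pdia6 (0.0402), 1.04 for Ero1b (0.0318) and 0.95 for Tmx1 (0.0402). All 4 share the array labelled NTG tamoxifen 1, and without it they read 1.72, 2.21, 1.26 and 0.82. The call held in 21 of 24 alternatives for Tmx3, in 10 of 24 each for Pdia6 and Tmx1, and in 7 of 23 for Ero1b. With the beta-actin covariate none of them was called. In the limma fit over all probe sets, the probe sets that stand for them missed the threshold (adjusted p from 0.0745 to 0.178).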

How the results depend on the processing

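Of 25 alternatives, 12 left out an array. Members called ranged under these from 4 to 7 in TG tamoxifen against TG vehicle, 0 to 3 in NTG tamoxifen against NTG vehicle, 0 to 3 in TG vehicle against NTG vehicle, 4 to 6 between the genotypes under tamoxifen and 1 to 7 for the difference of effects. Genes called ranged from 1466 to 3263, 0 to 843, 2 to 794, 3402 to 4786 and 644 to 2554, against 2774, 488, 405, 4411 and 1593 with all arrays; the 0 is without NTG vehicle 2, with 1861 at an unadjusted p under 0.05 in limma. No called member changed sign. The cause of each change below was not tested.

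In TG, the beta-actin covariate left 0 members and 5 genes, grouping TG vehicle 3 as TG tamoxifen 0 and 0 (2280 genes at an unadjusted p under 0.05 in limma), leaving out both TG vehicle 3 and TG tamoxifen 1 (below, both arrays) 0 and 742, and no filter 1604 genes. In NTG tamoxifen against NTG vehicle, 0 members were called with no filter (3 at an unadjusted p under 0.05), the mean of probe sets (1), the covariate (0), the replicate block (3), only the groups compared (2), the regrouping (2) and without both arrays (3); genes numbered 4, 203, 0, 167, 21, 98 and 86, and 972 with median centring. In TG vehicle against NTG vehicle an intensity trend called 1 member (Tmx1) and 635 genes; no filter gave 8 genes, the mean of probe sets 168, the covariate 0 (1450 unadjusted), the block 91, only the groups compared 17, the regrouping 0 (1395 unadjusted) and without both arrays 7. In TG tamoxifen against NTG tamoxifen the regrouping left 2 members. For the difference of effects, no filter gave 1 member and 361 genes, the mean of probe sets 2 and 1045, the covariate 0 and 0, the block 2 members, the regrouping 0 and 0 (2 and 1988 unadjusted), and without both arrays 0 and 57 (4 members unadjusted). Median centring moved the median of all genes from -0.01 to -0.16 in NTG, from 0.01 to -0.11 for the vehicle groups and from -0.07 to 0.18 for the difference of effects.

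Replicate numbers are only shared numbers: over 18 same-numbered pairs the correlation of deviations ran from -0.09 to 0.09, and 3 of 12 arrays correlated best with their own number. Under the replicate block the fall of Tmx3 in NTG missed the threshold (adjusted p = 0.066).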
